A study of Mus musculus with 54 samples.

Results

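The comparison described here asked which transcripts differ in mouse extraembryonic endoderm cells after a day of acute SOX17 degradation. It rests on 4 RNA-seq libraries, chosen by their sample titles from the 40 RNA-seq libraries among the 54 samples of the series. Both groups came from the Sox17-FKBP line of cXEN cells, a stem cell line of the extraembryonic endoderm, grown in Advanced RPMI medium with serum. The 24 h group was harvested after 24 h in 500 nM dTAGV1 (2 libraries), and the 0 h group is labelled DMSO at 0 h (2 libraries). The labels name no vehicle culture kept for 24 h, so the time in culture and the degrader cannot be told apart. They do not say whether the line is 1 clone or whether replicates were separate cultures. The p-values below therefore measure only spread between replicate libraries, which may be technical. Unless a fit of only the libraries compared is named, that spread is pooled over all 20 groups of RNA-seq libraries. It need not match the spread of the 24 h pair.

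SOX17 is an HMG-box transcription factor of primitive endoderm, the layer that gives rise to the parietal and visceral endoderm of the yolk sacs. XEN cells are its cultured counterpart: they lay down basement membrane and hold much of the parietal programme, while visceral genes such as those for serum carrier proteins are usually low. In an FKBP degron line the tagged protein is recruited by the small molecule dTAGV1 to a ubiquitin ligase and destroyed, while its mRNA can go on being made.

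Reads assigned to genes numbered 23895235 and 22160926 in the 24 h libraries and 28314623 and 41630196 in the 0 h libraries. Levels are given as CPM, read counts scaled to a common library size, with replicate 1 before replicate 2, and every log2 change is 24 h over 0 h with ± its standard error (n = 2 libraries each). The 24 h libraries stood apart from each other. The spread of counts between them was 38.91 times that of counting alone, against 3.159 times between the 0 h libraries, and 257 genes were at least 1 log2 unit lower in replicate 1 than in replicate 2 at 24 h, of 9278 genes averaging 5 CPM or more there. At 0 h no gene of 9253 was that far apart. Reads outside genes amounted to 4.69 and 5.44 per 100 gene reads at 24 h, against 6.01 and 5.92 at 0 h, and mitochondrially encoded transcripts to 0.685% and 0.966% of gene reads at 24 h, against 1.083% and 1.096% at 0 h. A fit that takes reads outside genes as covariate is given beside the counts below, and the part of the mitochondrial share was not tested. Each call was also read in 5 narrower fits, namely without each of the 4 libraries in turn and with these 4 libraries alone.

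Of 14625 genes tested, 4451 (30.4%) passed an adjusted p of 0.05 at 24 h against 0 h. Higher levels were called for 2549 genes (17.4%) and lower levels for 1902 (13.0%). Most of these changes were small: 1682 of the rises and 983 of the falls were under 1.5-fold, and 314 rises and 355 falls reached 1 log2 unit. In all 5 narrower fits 615 genes (4.21%) were called too, 435 higher and 180 lower, among them 143 rises and 55 falls of at least 1 log2 unit. The calls numbered 2007 without 24 h replicate 1 and 2595 without 0 h replicate 1. With reads outside genes as covariate 3246 genes were called, among them 1579 of the rises and 1051 of the falls. Because RNA came from whole cultures, fewer cells of a type and less RNA per cell cannot be told apart.

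**Figure D1:**
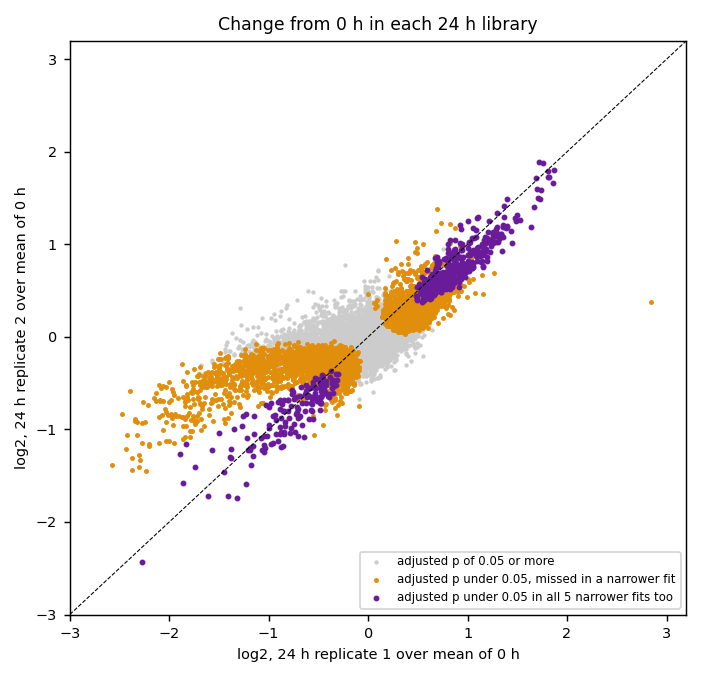
Log2 change from the mean of the 0 h libraries in 24 h replicate 1 (horizontal) and in 24 h replicate 2 (vertical), with 0.5 CPM added, for the 9280 genes averaging 5 CPM or more over the 4 libraries; the dashed line marks equal change. Genes called in all 5 narrower fits (purple, 563 of those plotted) lie along the line, while many other called falls (orange) lie above it, further from 0 h in replicate 1.

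The RNA of the targeted gene did not mark the treatment. Sox17 (ENSMUSG00000025902; mm10 chromosome 1, 4490928 to 4497426) stood at 286 and 264 CPM at 24 h, against 256 and 274 CPM at 0 h. The groups overlapped, and a log2 change of 0.06 ± 0.07 was not called (adjusted p = 0.62). Protein was not measured in these files, so the loss of SOX17 rests on the labels. Sox7, which encodes the related SOX factor of extraembryonic endoderm, fell to 120 and 114 CPM at 24 h, against 185 and 163 CPM at 0 h (−0.57 ± 0.10, adjusted p = 0.00015), and passed in all 5 narrower fits. Gata6, the zinc-finger factor of the same lineage, had 347 and 352 CPM at 24 h and 336 and 344 CPM at 0 h (0.04 ± 0.06, adjusted p = 0.69). Gata4 (−0.22 ± 0.07, adjusted p = 0.014) and Foxa2 (0.18 ± 0.07, adjusted p = 0.047) passed with small changes of opposite sign. The Gata4 call was lost without 24 h replicate 2 (adjusted p = 0.24), and the Foxa2 call without 24 h replicate 1 (adjusted p = 0.37).

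Among called genes averaging 5 CPM or more, the largest fall was that of Ppp1r16b. It encodes a regulatory subunit of protein phosphatase 1 studied mainly in endothelial cells (ENSMUSG00000037754; mm10 chromosome 2, 158666733 to 158766334). Its level was 13.1 and 11.7 CPM at 24 h, against 64.9 and 65.5 CPM at 0 h, a log2 change of −2.39 ± 0.10 (adjusted p = 2.3e-15). Both 24 h libraries lay close together and far below both 0 h libraries. The same held for Myh7, a myosin heavy chain gene (12.9 and 11.9 CPM at 24 h, 40.4 and 40.4 CPM at 0 h, −1.70 ± 0.12, adjusted p = 2.2e-11). Mir17hg, the host transcript of the miR-17 to miR-92 cluster, fell to 2.16 and 2.73 CPM at 24 h, against 8.87 and 9.46 CPM at 0 h (−1.91 ± 0.33, adjusted p = 6.4e-05). Rab30, a small GTPase gene of the Golgi, and Nrep, a neuronal regeneration-related gene, fell by 1.70 ± 0.17 and 1.65 ± 0.14 on the log2 scale.

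The other 10 of the 15 largest falls were those of Knl1, Lrrcc1, Rps6ka6, Cenpf, Cenpe, Mme, Kif20b, Esf1, Lcorl and Atrx, and both 24 h libraries differed widely in each. Cenpe, a kinetochore motor gene, had 52.2 and 97.5 CPM at 24 h, against 304 and 215 CPM at 0 h (−1.79 ± 0.33, adjusted p = 0.00014). Knl1, a kinetochore scaffold gene, had 5.83 and 14.0 CPM at 24 h, against 41.7 and 32.9 CPM at 0 h (−1.91 ± 0.35, adjusted p = 0.00014). In every 1 of the 10, both 24 h libraries lay below both 0 h libraries, but the calls were lost in the fit of the 4 libraries alone (adjusted p = 0.053 for Rps6ka6 to 0.100 for Lcorl). The 15 largest rises passed in all 5 narrower fits.

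**Figure D2:**
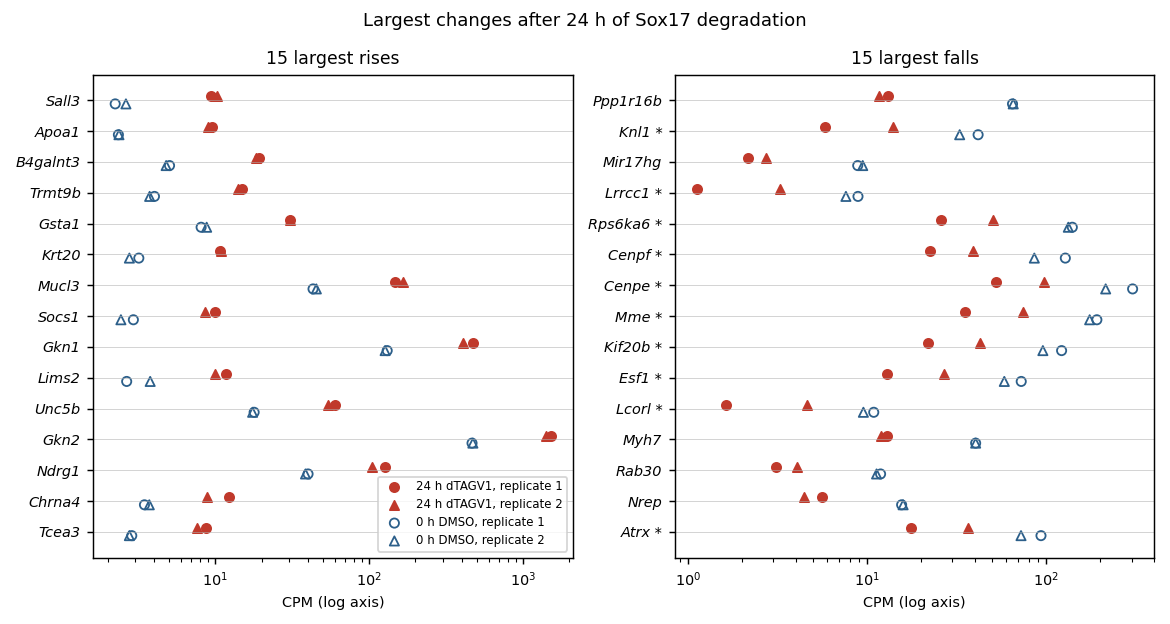
Levels in CPM (log axis) of the 15 largest rises (left) and 15 largest falls (right) among called genes averaging 5 CPM or more, with 24 h libraries in filled red and 0 h libraries in open blue, circles for replicate 1 and triangles for replicate 2. Genes with an asterisk were not called in all 5 narrower fits; there the 24 h symbols stand well apart, as for Knl1 with 5.83 and 14.0 CPM, while the 24 h symbols of Ppp1r16b (13.1 and 11.7 CPM) nearly meet.

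At the same level, the largest rise was that of Sall3, a zinc-finger gene of the spalt family, with 9.46 and 10.3 CPM at 24 h, against 2.24 and 2.63 CPM at 0 h (log2 change 2.01 ± 0.21, adjusted p = 2.1e-07). Its relative Sall4, a pluripotency and primitive endoderm gene (mm10 chromosome 2, 168748332 to 168767201), moved the other way, with 44.8 and 44.4 CPM at 24 h, against 104 and 105 CPM at 0 h (−1.23 ± 0.07, adjusted p = 1.9e-12). Sall1 (−0.32 ± 0.08) and Sall2 (−0.55 ± 0.10) fell too, but missed the threshold in the fit of the 4 libraries alone (adjusted p = 0.075 and 0.095). Of 13 SOX and SALL genes tested 2 rose (15.4%) and 5 fell (38.5%), beside 17.4% and 13.0% of all genes.

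Genes of mucous secretion were among the strongest rises. Gkn2, a gastrokine gene normally expressed in the stomach lining (mm10 chromosome 6, 87373365 to 87379494), had 1519 and 1419 CPM at 24 h, against 466 and 472 CPM at 0 h (1.65 ± 0.11, adjusted p = 1e-10). Its neighbour Gkn1 (chromosome 6, 87345653 to 87350915) rose to 470 and 409 CPM at 24 h, against 131 and 127 CPM at 0 h (1.77 ± 0.12, adjusted p = 1.2e-10). In both genes all 24 h values exceeded all 0 h values about equally in each replicate. Mucl3, a mucin-like gene, had 147 and 165 CPM at 24 h and 43.2 and 45.4 CPM at 0 h (1.82 ± 0.13). Of the 7 gastric and mucosal genes tested 5 rose (71.4%, beside 17.4% of all genes) and none fell. In the list of 11 genes 6 were under 1 CPM in all 4 libraries. Gkn1, Gkn2 and the mucin gene Muc13 (2.76 and 2.92 CPM at 24 h, 0.561 and 0.86 CPM at 0 h) passed in all 5 narrower fits. Other large rises were those of B4galnt3, a glycosyltransferase gene (1.94 ± 0.12), Gsta1, a glutathione transferase gene (1.86 ± 0.18), Trmt9b (1.89 ± 0.14), Socs1, an inhibitor of cytokine signalling (1.79 ± 0.24), Unc5b, a netrin receptor gene (1.69 ± 0.14), and Ndrg1 (1.56 ± 0.12).

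Keratins rose as a group, in 85.7% of those tested beside 17.4% of all genes. These genes encode the intermediate filaments of epithelia, and Krt8 and Krt18 are the pair of simple epithelia. Krt8 had 2909 and 2402 CPM at 24 h, against 1279 and 1325 CPM at 0 h (1.03 ± 0.10, adjusted p = 6.6e-09), and Krt18 had 1368 and 1213 CPM at 24 h, against 547 and 583 CPM at 0 h (1.19 ± 0.10, adjusted p = 3.9e-10). Krt19, Krt20 and Krt23 rose by more, with log2 changes of 1.39 ± 0.12, 1.86 ± 0.20 and 1.43 ± 0.14. Of 7 keratin genes tested 6 rose, none fell, and 5 passed in all 5 narrower fits. Their median log2 change, over the 6 with a mean of at least 1 CPM, was 1.29, beside 0.05 over the 11020 genes of that level among all those tested.

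Cell junction genes rose more often than they fell, by smaller amounts. Cdh1, the gene of the epithelial adherens junction protein E-cadherin, had 28.2 and 29.1 CPM at 24 h, against 12 and 10.4 CPM at 0 h (1.36 ± 0.10, adjusted p = 6.8e-11). Of the 20 adherens junction, desmosome and epithelial genes tested 10 rose and none fell (median log2 change 0.51), and Cdh1, the desmosomal plakophilin gene Pkp2 (0.58 ± 0.07) and the protease inhibitor gene Spint2 (0.83 ± 0.13) passed in all 5 narrower fits. Of 19 tight junction and polarity genes 12 rose and 2 fell (median 0.31), and 7 to 9 rose without each library in turn. Cgn, which encodes cingulin, rose to 36.2 and 31.6 CPM at 24 h, against 18.5 and 17 CPM at 0 h (0.93 ± 0.11, adjusted p = 1.6e-07). F11r, Llgl2 and Marveld2 rose by 0.56 ± 0.07, 0.71 ± 0.08 and 0.81 ± 0.11. Cldn6, an early embryonic claudin, fell to 25.3 and 23.1 CPM at 24 h, against 43.8 and 47.2 CPM at 0 h (−0.91 ± 0.10, adjusted p = 1.5e-07).

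Some contractile genes usually counted as mesenchymal rose. Tagln, which encodes the smooth muscle protein transgelin, had 538 and 465 CPM at 24 h, against 272 and 286 CPM at 0 h (0.85 ± 0.11, adjusted p = 1.3e-06), and Acta2, for smooth muscle actin, had 912 and 775 CPM at 24 h, against 501 and 514 CPM at 0 h (0.73 ± 0.10, adjusted p = 3.2e-06). Of the 17 mesenchymal genes tested 5 rose (29.4%, beside 17.4% of all genes), none fell and 12 did not pass, and Tagln and Acta2 passed in all 5 narrower fits; without 24 h replicate 1, and without 0 h replicate 2, the risers numbered 2. Targets of the YAP and TEAD growth regulators rose in 9 of 17 cases (5 without 0 h replicate 1). Yap1 itself fell slightly (−0.21 ± 0.06, adjusted p = 0.012), a call lost with these 4 libraries alone (adjusted p = 0.095). Ccn2 had 2512 and 2224 CPM at 24 h, against 1284 and 1362 CPM at 0 h (0.84 ± 0.07, adjusted p = 5.3e-10), and Ccn1 rose by 0.89 ± 0.10. Of 25 basement membrane and integrin genes 9 rose and 2 fell (5 and 1 without 24 h replicate 1). The laminin chain genes Lamb2 (0.59 ± 0.07) and Lama5 (0.72 ± 0.13) rose in all 5 narrower fits as well. Lamb1 (−0.26 ± 0.07) and Lama1 (−0.31 ± 0.11), for chains typical of Reichert's membrane, fell slightly. The calls of Lamb1 and Lama1 were lost with these 4 libraries alone (adjusted p = 0.079 and 0.072).

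**Figure D3:**
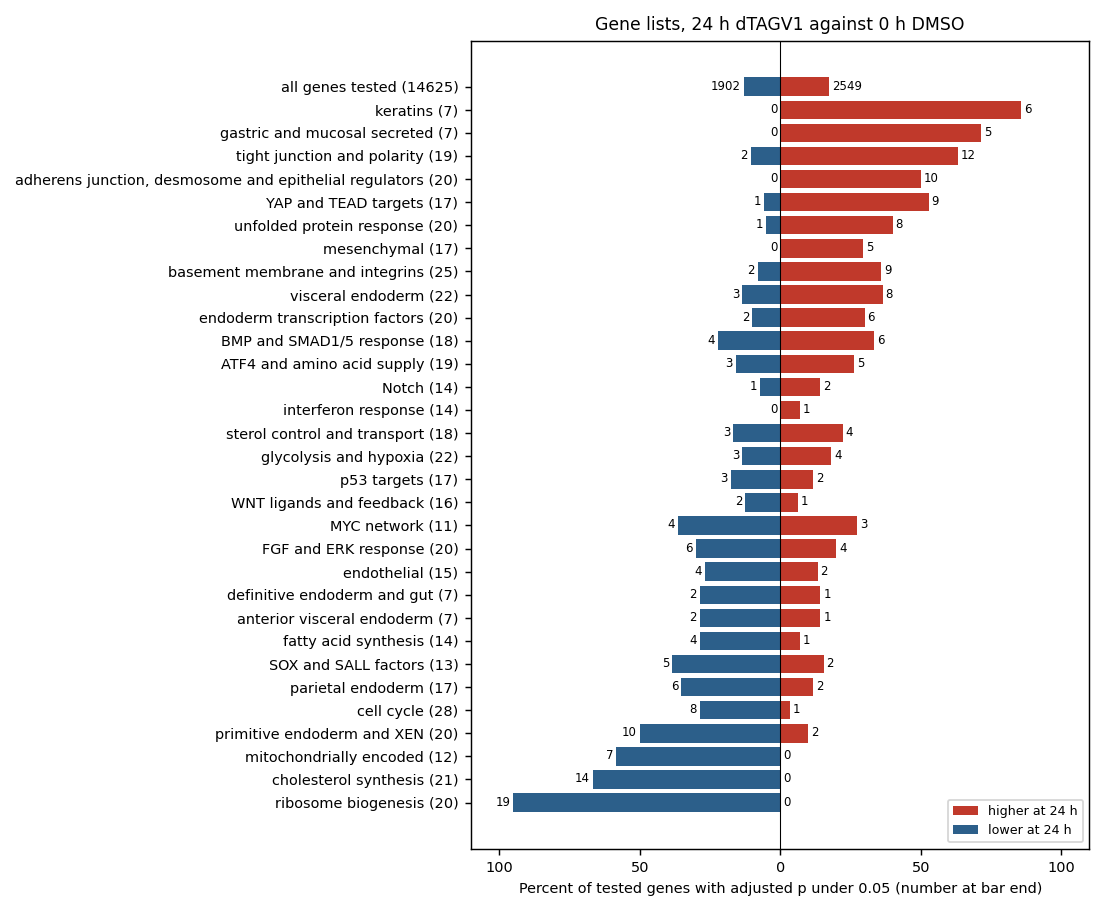
Percent of the tested members of each gene list, and of all genes tested (top), that were higher (red, right) or lower (blue, left) at 24 h with an adjusted p under 0.05; list sizes stand in brackets and numbers of genes at the bar ends. Keratins (6 of 7 higher) and ribosome biogenesis genes (19 of 20 lower) stand at opposite ends, beside 17.4% higher and 13.0% lower over all genes.

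Genes of primitive endoderm and XEN identity fell more often than they rose, 10 against 2 of 20 tested, with a median log2 change of −0.22 over the 19 with at least 1 CPM. Sall4 and Sox7, described above, were among those that fell in all 5 narrower fits, whereas most of the other falls were missed in at least 1 of them. Fgfr2, a receptor of fibroblast growth factors, rose to 138 and 140 CPM at 24 h, against 75.9 and 73.6 CPM at 0 h (0.90 ± 0.12, adjusted p = 1.2e-06). Levels of the list as a whole remained high, summing to 23780 and 23855 CPM at 24 h and 29132 and 28230 CPM at 0 h, so the defining markers of the labelled cell type were present at both times. Of 17 parietal endoderm genes 6 fell (35.3%) and 2 rose (11.8%), with a median of −0.11. Stra6, a receptor for retinol-binding protein, had 106 and 93.1 CPM at 24 h, against 202 and 210 CPM at 0 h (−1.05 ± 0.08, adjusted p = 2.7e-10), and Fst, which encodes the activin antagonist follistatin, rose to 29.8 and 28.8 CPM at 24 h, against 16 and 13.2 CPM at 0 h (1.01 ± 0.10, adjusted p = 3.6e-08).

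Genes of visceral endoderm rose in 8 (36.4%) and fell in 3 (13.6%) of 22 cases (median 0.52 over 14 genes of at least 1 CPM). Over all genes 17.4% rose and 13.0% fell. The summed level of the list overlapped between groups, at 1330 and 1418 CPM at 24 h, against 1391 and 1337 CPM at 0 h. Its highest member, Cubn, averaged 836 CPM at 24 h and 911 CPM at 0 h. The risers included genes for serum carriers: Apoa1, the main protein of high-density lipoprotein, had 9.59 and 8.98 CPM at 24 h, against 2.35 and 2.37 CPM at 0 h (1.97 ± 0.15, adjusted p = 1.5e-10), and Ttr, for transthyretin, had 75.2 and 63.7 CPM at 24 h, against 31.4 and 34.0 CPM at 0 h (1.09 ± 0.11, adjusted p = 2.9e-08). Rbp4 and Afp rose by 0.94 ± 0.11 and 1.16 ± 0.14. All 4 passed in all 5 narrower fits. Dkk1, a WNT antagonist of the anterior visceral endoderm, fell to 6.61 and 5.01 CPM at 24 h, against 14.8 and 17.4 CPM at 0 h (−1.47 ± 0.12, adjusted p = 9.2e-10). Nepn, a gut endoderm proteoglycan gene, had 8.94 and 9.61 CPM at 24 h and 24.0 and 24.6 CPM at 0 h (−1.39 ± 0.10, adjusted p = 1.1e-10). These 2 genes do not give the direction of their lists. Of 7 anterior visceral endoderm genes tested 1 rose and 2 fell, and the counts were the same for 7 definitive endoderm and gut genes. In these lists 10 of 12 and 11 of 14 genes were under 1 CPM in all 4 libraries.

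Markers of other cell types were low at both times, except for Fbln2 of the fibroblast list, which averaged 230 CPM at 24 h and 255 CPM at 0 h. Over 12 pluripotent epiblast markers the summed level was 45.5 and 50.4 CPM at 24 h, against 36.1 and 39.2 CPM at 0 h, and 5 of the 12 had no read in the 4 libraries. Trophoblast markers summed to 21.7 and 18.7 CPM at 24 h and 15.3 and 14.2 CPM at 0 h, with 5 of 14 at no read, and blood markers to 45.5 and 48.0 CPM at 24 h and 29.6 and 28.6 CPM at 0 h, of which Runx1 made up nearly all. Mesoderm markers summed to 30.7 and 27.7 CPM at 24 h, against 14 and 13.8 CPM at 0 h, mostly Myl7, neural markers to 17.5 and 15 CPM at 24 h and 16.5 and 14.8 CPM at 0 h, and fibroblast markers to 243 and 230 CPM at 24 h and 257 and 268 CPM at 0 h, mostly Fbln2. Their part in the results was not tested. Runx1, a blood factor gene, and Myl7, a myosin light chain gene, were the members of these lists called in all 5 narrower fits (0.74 ± 0.09 and 1.10 ± 0.15).

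Genes usually known from endothelium held some of the clearest falls. Cdh5, which encodes VE-cadherin and is also expressed in XEN cells, had 181 and 170 CPM at 24 h, against 299 and 297 CPM at 0 h (−0.76 ± 0.07, adjusted p = 1.8e-09). Flt1, a receptor of vascular endothelial growth factor, fell to 6.05 and 6.65 CPM at 24 h, against 15.1 and 14.3 CPM at 0 h (−1.21 ± 0.14, adjusted p = 2.7e-07). With Ppp1r16b these 2 passed in all 5 narrower fits. Of 15 endothelial genes tested 4 fell (26.7%) and 2 rose (13.3%), beside 13.0% lower and 17.4% higher over all genes. In the list 10 of the 19 were under 1 CPM in all 4 libraries.

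Genes of ribosome biogenesis fell almost throughout, 19 of 20 tested (95.0%, beside 13.0% of all genes), with a median log2 change of −0.50 and none higher. The list covers nucleolar proteins, RNA polymerase I subunits and assembly factors. Nolc1, a nucleolar phosphoprotein gene, had 301 and 295 CPM at 24 h, against 452 and 471 CPM at 0 h (−0.63 ± 0.06, adjusted p = 9.7e-09), and Polr1b, of RNA polymerase I, had 57.5 and 48.6 CPM at 24 h, against 80.7 and 79.9 CPM at 0 h (−0.60 ± 0.08, adjusted p = 4.8e-06). Fbl, Polr1a, Nop56, Rrs1 and Dkc1 passed in all 5 narrower fits too. Larger falls of Ncl and Npm1 (−1.24 ± 0.19 and −1.16 ± 0.17) came with wide gaps at 24 h: Ncl had 525 and 984 CPM at 24 h, against 1826 and 1747 CPM at 0 h, and its call was lost with these 4 libraries alone (adjusted p = 0.091). Falls numbered 14 to 20 without each library in turn, 20 of them without 24 h replicate 1. Odc1, the polyamine synthesis gene, was the member that did not pass (−0.11, adjusted p = 0.25).

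Myc and Mycn fell with close replicates. Myc, a regulator of growth and ribosome genes, had 18.1 and 17.7 CPM at 24 h, against 40.8 and 43.0 CPM at 0 h (−1.22 ± 0.10, adjusted p = 2.4e-10), and Mycn had 38.8 and 38.2 CPM at 24 h, against 83.4 and 81.1 CPM at 0 h (−1.10 ± 0.10, adjusted p = 3.8e-09). Over the 11 MYC network genes 4 fell (36.4%) and 3 rose (27.3%), beside 13.0% lower and 17.4% higher over all genes. Of 28 cell cycle genes 8 fell and 1 rose (median 0.01), and none of these passed in all 5 narrower fits. Mki67, the proliferation marker, showed the gap between replicates seen in the kinetochore genes, with 99.6 and 175 CPM at 24 h, against 434 and 340 CPM at 0 h (−1.50 ± 0.33, adjusted p = 0.0011, and 0.067 with these 4 libraries alone).

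Cholesterol synthesis genes fell in 14 of 21 cases (66.7%, beside 13.0% of all genes) with none higher, by small amounts (median −0.25, range −1.20 to 0.31). Insig1, a sterol-regulated gene, holds the pathway's activator SREBP in the endoplasmic reticulum. It belongs to a separate sterol control list, in which 4 of 18 genes rose (22.2%) and 3 fell (16.7%), beside 17.4% and 13.0% over all genes. Insig1 had 41.4 and 35.8 CPM at 24 h, against 74.2 and 68.1 CPM at 0 h (−0.88 ± 0.10, adjusted p = 1.3e-07). Cyp51, which demethylates lanosterol, averaged 55.6 ± 1.04 CPM at 24 h and 81.0 ± 1.41 CPM at 0 h (SD, n = 2 each; −0.54 ± 0.07, adjusted p = 8e-07). Insig1 and Cyp51 passed in all 5 narrower fits, Cyp51 as the only fall of the synthesis list to do so. Hmgcs1 (−0.75 ± 0.12) and Idi1 (−1.20 ± 0.18), early enzymes of the mevalonate pathway, fell with wider gaps at 24 h and were lost with these 4 libraries alone (adjusted p = 0.080 and 0.060), and the number of falls was 7 to 10 without each library in turn. The promoters of Hmgcs1, Idi1, Cyp51 and Insig1, each called lower at 24 h, are shown (RefSeq, GRCm38.p6, 250 bases before to 50 bases after the gene start, 5′ to 3′ on the gene's strand). Capitals mark the CCAAT box, the letters CCAAT on either strand, and in Hmgcs1 also the sterol regulatory element TCACNCCAC: Hmgcs1 at chr13:119690101-119690400 (+ strand), Idi1 at chr13:8885356-8885655 (+ strand), Cyp51 at chr5:4104648-4104947 (− strand) and Insig1 at chr5:28071162-28071461 (+ strand).
Hmgcs1: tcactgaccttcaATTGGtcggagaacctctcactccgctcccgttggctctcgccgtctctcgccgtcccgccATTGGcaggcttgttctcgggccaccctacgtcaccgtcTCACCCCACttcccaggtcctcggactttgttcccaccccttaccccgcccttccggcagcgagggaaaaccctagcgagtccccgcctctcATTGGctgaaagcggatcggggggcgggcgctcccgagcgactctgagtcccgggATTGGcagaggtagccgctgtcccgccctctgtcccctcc
Idi1: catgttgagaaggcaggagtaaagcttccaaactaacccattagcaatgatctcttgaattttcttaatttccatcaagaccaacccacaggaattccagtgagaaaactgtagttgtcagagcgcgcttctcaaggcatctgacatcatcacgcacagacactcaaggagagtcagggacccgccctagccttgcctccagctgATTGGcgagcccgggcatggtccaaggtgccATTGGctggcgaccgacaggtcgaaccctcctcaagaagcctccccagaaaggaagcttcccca
Cyp51: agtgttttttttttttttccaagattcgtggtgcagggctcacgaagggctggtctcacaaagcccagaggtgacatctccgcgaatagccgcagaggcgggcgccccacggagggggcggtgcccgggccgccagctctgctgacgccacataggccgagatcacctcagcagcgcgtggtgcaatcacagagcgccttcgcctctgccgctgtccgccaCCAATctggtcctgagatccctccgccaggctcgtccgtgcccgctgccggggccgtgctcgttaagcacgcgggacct
Insig1: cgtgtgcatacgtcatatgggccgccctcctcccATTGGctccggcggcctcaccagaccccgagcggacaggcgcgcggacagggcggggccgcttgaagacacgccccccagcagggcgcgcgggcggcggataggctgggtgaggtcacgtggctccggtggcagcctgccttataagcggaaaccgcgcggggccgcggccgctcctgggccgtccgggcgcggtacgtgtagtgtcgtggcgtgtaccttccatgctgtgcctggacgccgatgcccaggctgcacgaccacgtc

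The letters CCAAT stood in 15 of the 19 RefSeq promoters of cholesterol synthesis genes (78.9%, with 16 of the 21 genes in the table) and in 37.4% of all 32851 promoters of the same length. TCACNCCAC was found in 1 of the 19, that of Hmgcs1, and in 1.2% of all promoters. AACAAT, the core letters of many SOX sites, stood in 1 of the 19 (5.3%), in 2 of 17 promoters of ribosome biogenesis genes (11.8%), in 4 of 18 promoters of 12 of the 15 largest falls (22.2%) and in 10.7% of all promoters. It was in none of the promoters shown, where the marked strings did not overlap. All strings were sought on both strands. A match is a string of letters, and no binding was measured in these files.

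Signalling genes changed in both directions. Wnt4, a ligand of the WNT family, had 315 and 273 CPM at 24 h, against 119 and 121 CPM at 0 h (1.29 ± 0.11, adjusted p = 1.3e-09). It was the only riser of 16 WNT genes (6.25%), of which 2 fell (12.5%). Over all genes 17.4% rose and 13.0% fell. Notch1 had 45.5 and 43.2 CPM at 24 h, against 20.1 and 18.8 CPM at 0 h (1.19 ± 0.11, adjusted p = 4.6e-09), and Notch2 rose by 0.60 ± 0.15, whereas Hes1, a Notch target, fell by 0.32 ± 0.09 on the log2 scale, a call lost without 0 h replicate 2 (adjusted p = 0.14). Bmp6, a ligand of the bone morphogenetic protein family, had 53.1 and 48.7 CPM at 24 h, against 25.7 and 26.6 CPM at 0 h (0.96 ± 0.09, adjusted p = 3.3e-09), and Id3, a target of that pathway, had 24.8 and 18.3 CPM at 24 h, against 8.27 and 9.3 CPM at 0 h (1.29 ± 0.17). Of the 18 genes in that list 6 rose and 4 fell, shares above the 17.4% and 13.0% of all genes. The counts were 3 and 1 without 24 h replicate 1, and 2 and 2 without 0 h replicate 1. Of the rises, 2 passed in all 5 narrower fits. Etv4 (2.72 and 2.51 CPM at 24 h, 5.61 and 6.33 CPM at 0 h, −1.20 ± 0.17), Etv5 (−1.17 ± 0.12) and Spred1 (−1.18 ± 0.16), genes induced by ERK signalling, fell in all 5 narrower fits, while Dusp5, Ier3 and Phlda1 of the same list rose by 0.60 ± 0.12, 0.59 ± 0.12 and 0.49 ± 0.08 and were not called in all of them. Over the 20 FGF and ERK genes 4 rose, a share near the 17.4% of all genes. Of the same 20 genes 6 fell, a share above the 13.0% of all genes.

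Set between its neighbours in the course, the 24 h harvest held changes already present at 6 h and changes that turned afterwards. Against 6 h, 1902 genes were called (13.0%), 1278 higher and 624 lower at 24 h, whereas edgeR on the libraries of those 2 times alone called 0 (1820 at an unadjusted p under 0.05; DESeq2 on all libraries called 2216). The calls numbered 594 and 3733 without 24 h replicate 1 and 2, and 897 and 698 without 6 h replicate 1 and 2. Between 48 h and 24 h 4852 genes were called (33.2%), 2187 higher and 2665 lower at 48 h (18.2% lower), and 2268 without 24 h replicate 1, 2947 without 48 h replicate 2. Ppp1r16b stood lower at each time up to 72 h, at 65.2, 28.6, 12.4, 9.22, 5.31 and 5.50 CPM on average at 0, 6, 24, 48, 72 and 96 h. Gkn2 averaged 469, 617, 1469 and 2635 CPM at 0, 6, 24 and 48 h, higher at each.

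A set of 867 genes stood apart at 24 h from both neighbouring times, 605 above and 262 below. Krt8, Krt18, Tagln, Acta2 and Ccn2 were among the peaks. Krt8 averaged 1302, 1703, 2655 and 1386 CPM at 0, 6, 24 and 48 h, and 2267 CPM at 96 h. Tagln averaged 279, 302, 501, 75, 182 and 428 CPM over the 6 times, with a log2 change of −2.74 between 48 h and 24 h. Acta2 (508, 529, 843, 263, 513 and 950 CPM) and Ccn2 (1323, 1495, 2368, 1069, 1695 and 2073 CPM) followed the same order of high 24 h, low 48 h and high 96 h. Of 7 keratin genes 4 and of 17 YAP and TEAD genes 9 were lower at 48 h than at 24 h. Dips at 24 h included Knl1, Lcorl, Stag2 and Zfp37, where both 24 h libraries differed widely (Stag2 11.1 and 30.9 CPM). The set numbered 241 genes without 24 h replicate 1 and 2458 without 24 h replicate 2, 451 and 336 without 6 h replicate 1 and 2, and 0 by edgeR with only the libraries of these 3 times, against 1000 by DESeq2 on all libraries. Both steps share the 24 h libraries, so the turn has no test of its own.

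**Figure D4:**
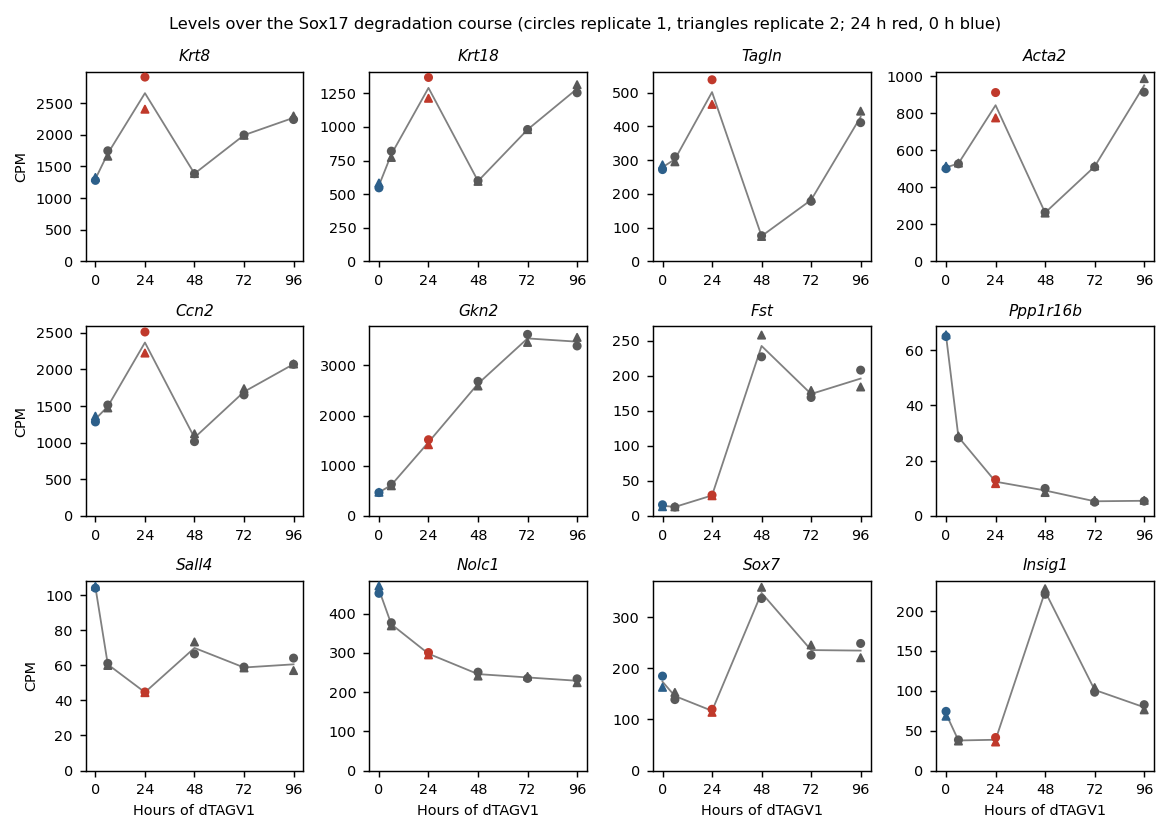
Levels in CPM (linear axes from 0) of 12 genes at 0, 6, 24, 48, 72 and 96 h of dTAGV1, with circles for replicate 1, triangles for replicate 2, red for 24 h, blue for 0 h and a grey line through the means. Krt8, Krt18, Tagln, Acta2 and Ccn2 are high at 24 h, low at 48 h and high again at 96 h, Nolc1 falls throughout and Ppp1r16b until 72 h, and Sox7, Fst and Insig1 are highest at 48 h.

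Several genes turned upward after 24 h. Sox7 averaged 348 CPM at 48 h and 117 CPM at 24 h, and Insig1 224 CPM at 48 h and 38.6 CPM at 24 h. Fst stood at 243 CPM at 48 h and 29.3 CPM at 24 h, and Egln3, a hypoxia-induced oxygen sensor gene, at 74.7 CPM at 48 h and 3.86 CPM at 24 h (log2 change 4.27 between 48 h and 24 h). The falls of Myc and Mycn were followed by no called change (−0.24 and 0.10 between 48 h and 24 h, adjusted p = 0.063 and 0.48).

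The response to 24 h of SOX17 degradation was set against that of the Gata6-FKBP line to 24 h of dTAGV1, each over its own 0 h libraries. The difference passed the test for 1149 genes (7.86%), 723 with the higher response in the Sox17-FKBP line (4.94%) and 426 with the lower (2.91%). It passed for 1766 genes without 24 h replicate 1 of the Sox17-FKBP line, 727 and 744 without its 0 h replicates 1 and 2, 727 without 24 h replicate 1 of the Gata6-FKBP line, 348 with only the libraries compared and 2354 with reads outside genes as covariate. Ppp1r16b fell in the Sox17-FKBP line, whereas the Gata6-FKBP line had 83.1 and 83.0 CPM at 24 h, against 79.3 and 87.5 CPM at 0 h (difference of log2 changes −2.39 ± 0.14, adjusted p = 4.1e-12). Sall4 differed by −1.30 ± 0.10 and Myc by −1.48 ± 0.14, with small changes in the Gata6-FKBP line (0.07 and 0.25, adjusted p = 0.51 and 0.062). Cdh5 fell in the Sox17-FKBP line and rose in the Gata6-FKBP line (0.37, adjusted p = 0.00047), a difference of −1.14 ± 0.09. Of 20 ribosome biogenesis genes 14 had the lower response in the Sox17-FKBP line and none the higher, with Nolc1 at −0.60 ± 0.09 (adjusted p = 2.5e-05) and no difference called for Ncl (−0.15, adjusted p = 0.83). Among keratins 4 of 7 had the higher response after SOX17 degradation, Krt8 by 0.77 ± 0.14 and Krt18 by 0.83 ± 0.13.

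For some genes the lines started from different levels. Il33, a cytokine of the interleukin-1 family, had 178 and 209 CPM at 24 h and 91.3 and 94.0 CPM at 0 h in the Sox17-FKBP line, but 2.42 and 2.33 CPM at 24 h and 5.75 and 5.52 CPM at 0 h in the Gata6-FKBP line (difference 2.31 ± 0.18, adjusted p = 1.4e-09). Upp1, a uridine phosphorylase gene, had 18.8 and 13.9 CPM at 24 h and 49.9 and 45.1 CPM at 0 h in the Sox17-FKBP line, against 544 and 541 CPM at 24 h and 369 and 428 CPM at 0 h in the Gata6-FKBP line (−1.98 ± 0.20). For Cenpe no difference was called (−0.62 ± 0.48, adjusted p = 0.52), and it fell in the Gata6-FKBP line too (log2 change −1.17, adjusted p = 0.020).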

How the data were processed

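The authors deposited raw counts, whole numbers of reads per Ensembl gene, for 40 RNA-seq libraries of mouse cXEN cells. Libraries were made from total RNA, per the labels' protocols. HISAT2, HTSeq and mm10 are named in the submitters' processing notes, and the strand setting is not given in the sources used here, so overlapping and antisense genes cannot be told apart. Totals of reads outside genes were kept apart (4.69 to 6.01 per 100 gene reads in the 4 libraries compared). Symbols came from an Ensembl table, which left 505 of 47729 genes unnamed, and coordinates and promoters from RefSeq (GRCm38.p6).

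Counts of all 40 libraries entered 1 quasi-likelihood fit (edgeR 4.0.16, R 4.3.3) holding a mean for each of 20 groups, with TMM scaling. After low-count genes were removed by filterByExpr, 14625 were tested (20 residual degrees of freedom, biological coefficient of variation 8.22%). A gene was called where its p, adjusted by Benjamini and Hochberg over all genes tested, was under 0.05. A standard error is the log2 change over the square root of its F statistic. List members are given as counts, with medians over members of at least 1 CPM, and 640 of 641 listed names matched. Named genes are 5 endoderm factors, the 15 largest called rises and falls averaging 5 CPM or more without overlap between groups, the members of each list with the smallest adjusted p or needed to account for it, and the leading genes of the other contrasts and of the turn at 24 h. The members and lists were chosen with earlier results of these data known. Alternatives were median-of-ratios size factors, all genes kept, DESeq2 1.42.0, limma 3.58.1 voom with sample weights, the Sox17-FKBP course alone, the libraries compared alone, the reads outside genes as a covariate, a replicate block and leaving out each library. The procedure was tested on simulated counts. Some results are not reported here.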

Additional observations from a re-analysis of the deposited data

Results flagged for a closer look

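The response at 24 h differed between the Sox17-FKBP and Gata6-FKBP lines for 1149 genes by the test of the difference itself (348 with only the libraries compared, 727 to 1766 without each library in turn). Among the genes named, the response was higher in the Sox17-FKBP line for Il33 (difference of log2 changes 2.31), Dapp1 (2.09), Aff2 (1.97), Fst (1.95), Prss23 (1.79) and Mucl3 (1.70). It was lower for Ppp1r16b (−2.39), Ptger3 (−2.25), Upp1 (−1.98), Myh7 (−1.95), Prss12 (−1.94) and Slc2a3 (−1.84). Fst rose in the Sox17-FKBP line, with 29.8 and 28.8 CPM at 24 h, against 16 and 13.2 CPM at 0 h, and fell in the Gata6-FKBP line, with 80.7 and 86.3 CPM at 24 h, against 159 and 161 CPM at 0 h. Slc2a3, a glucose transporter gene, fell in the Sox17-FKBP line (48.9 and 42.5 CPM at 24 h, 113 and 110 CPM at 0 h) and rose in the Gata6-FKBP line (552 and 541 CPM at 24 h, 341 and 400 CPM at 0 h). Dapp1 and Aff2 were at or under 2 CPM in all 4 Gata6-FKBP libraries. In the Sox17-FKBP line itself Aff2 was not called (log2 change 0.41 ± 0.23, adjusted p = 0.19). There it had 10.7 and 16.1 CPM at 24 h, against 10.4 and 9.75 CPM at 0 h.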

How the results depend on the processing

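The 4451 genes called at 24 h against 0 h stayed within 1.5 times that number with median-of-ratios size factors, without a low-count filter, with DESeq2, limma voom, the Sox17-FKBP course alone, the covariate and the replicate block. They numbered 625 with only the libraries compared (3639 at an unadjusted p under 0.05) and 2007 to 5406 without each library in turn, fewest without 24 h replicate 1. With only the libraries compared, 0 genes were called at 24 h against 6 h, 1126 at 48 h against 24 h, 348 for the difference from the Gata6-FKBP line and 0 for the turn at 24 h. Without each library in turn these numbered 594 to 3733, 2268 to 5813, 727 to 1766 and 241 to 2458. With the covariate, 2543 were called at 48 h against 24 h, 2354 for the difference and 559 for the turn, limma voom gave 1073 at 24 h against 6 h and 508 for the turn, and no low-count filter gave 1407 for the turn. The cause of these shifts was not tested.

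The main fit did not pair libraries by replicate number. Correlations of replicate deviations (2 pairs each) were −0.23 between 24 h and 0 h and 0.352 between 24 h and 6 h. They were 0.104 between 48 h and 24 h and −0.011 between 24 h and 0 h of the Gata6-FKBP line. Whether the 24 h and 6 h libraries are paired was not tested. A replicate block gave 4356 calls in the fit of all libraries and, chosen after seeing the data, 72 with only the 4 libraries. Crossing the numbers, also chosen then, gave 764. Among the genes named, no direction reversed under any alternative.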

Other observations

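Metabolic and stress genes changed in both directions, and their counts stand beside 17.4% higher and 13.0% lower over all genes. Vegfa, for vascular endothelial growth factor, had 12.8 and 12.7 CPM at 24 h, against 30.8 and 28.7 CPM at 0 h (log2 change −1.22 ± 0.16, adjusted p = 1.1e-06), within a glycolysis and hypoxia list in which 4 of 22 genes rose (18.2%; 2 without 24 h replicate 1 or 0 h replicate 2) and 3 fell (13.6%). The glutamate transporter gene Slc1a3 fell to 6.0 and 5.29 CPM at 24 h, against 12.6 and 13.0 CPM at 0 h (−1.18 ± 0.13), while its relative Slc1a4 rose to 48.0 and 43.2 CPM at 24 h, against 28.4 and 29.5 CPM at 0 h (0.65 ± 0.08). Of 19 ATF4 and amino acid genes 5 rose (26.3%) and 3 fell (15.8%), with 3 risers without 24 h replicate 1 or either 0 h library and 8 without 24 h replicate 2. Of 20 unfolded protein response genes 8 rose (40%) and 1 fell (5%), against 4 and 0 without 24 h replicate 1, and of 14 fatty acid synthesis genes 1 rose (7.14%) and 4 fell (28.6%). The p53 list had 2 of 17 higher (11.8%) and 3 lower (17.6%, and 1 without either 0 h library), and the interferon list 1 of 14 higher (7.14%, and 0 without 24 h replicate 1 or either 0 h library) and none lower. Mitochondrially encoded genes fell in 7 of 12 cases (58.3%) with none higher, 1 fell without 24 h replicate 1 and 4 without 0 h replicate 2, and mt-Nd2 was called in all 5 narrower fits (549 and 561 CPM at 24 h, 773 and 760 CPM at 0 h).

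The 257 genes at least 1 log2 unit lower in 24 h replicate 1 than in replicate 2 were evenly split in some other groups and unevenly in others. Their median log2 ratio of replicate 1 over replicate 2 was 0.12 at 0 h, −0.24 at 6 h and −1.13 at 24 h (where it chose them) in the Sox17-FKBP line, 0.74 at 0 h and 0.02 at 24 h of the Gata6-FKBP line, and 0.81 at 24 h and 0.00 at 72 h of BMP4. Of these genes 187 were called lower at 24 h against 0 h and none higher. The low 24 h replicate 1 values that chose these genes also enter that comparison. Neither this split nor the Sox17-FKBP median change that follows can therefore test for a fall. Their median log2 change at 24 h against 0 h was −0.86 in the Sox17-FKBP line and −1.08 in the Gata6-FKBP line. Chromosome X held 11.4% of those with coordinates, beside 3.3% of all genes of at least 5 CPM at 24 h. Among the 158 genes of at least 5 CPM at 24 h called lower by at least 1 log2 unit, 78 were at least 1 log2 unit apart between the 24 h libraries.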
